A study of Homo sapiens with 22 samples.

Results

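The 10 genes described here are PHGDH, PSAT1, PSPH, SHMT2, MTHFD2, ASNS, ATF4, DDIT3, TRIB3 and CHAC1, that is 5 enzymes of serine synthesis and mitochondrial one-carbon metabolism and 5 genes of the ATF4 stress response. They were taken by gene symbol from the 33694 genes counted in every library, and all 10 were among the 12954 genes that passed the filter on detection. Their RNA was followed by single-cell RNA sequencing while BJ fibroblasts, an established line of human foreskin fibroblasts, were reprogrammed in microfluidic chips. The cells were transfected with messenger RNAs for POU5F1, SOX2, KLF4, MYC, LIN28 and NANOG. The authors describe these as non-modified, and call them mmRNAs in the protocol for the chips. Cells were harvested before the first transfection (D0) and on D3, D5, D7, D9, D11, D13 and D15, with 8 daily transfections that ended on day 8. The fibroblasts were grown in DMEM with fetal bovine serum, were given supplemented Pluriton medium from day 1 and StemMACS iPSBrew from day 9, and were reprogrammed at low oxygen. Each day had 2 pools, A and B (n = 2), every pool combined the cells of several independently run chips of this 1 line, and 6 of the 16 pools were captured as 2 frozen aliquots, giving 22 libraries. D3 to D9 are called here the early phase, although D9 came a day after the last transfection and at the change to iPSBrew, and D11 to D15 the late phase.

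PHGDH, PSAT1 and PSPH convert the glycolytic intermediate phosphoglycerate to serine in consecutive steps, and SHMT2 and MTHFD2 then carry the carbon of serine into the mitochondrial folate pool, which feeds nucleotide synthesis and is known to be active in proliferating and pluripotent cells. ATF4 is a transcription factor whose messenger RNA is translated preferentially when the initiation factor eIF2alpha is phosphorylated, so that its activity is set largely after transcription. Genes of serine synthesis, ASNS, DDIT3, TRIB3 and CHAC1 are all textbook targets of ATF4, and DDIT3 (CHOP), TRIB3 and CHAC1 are read as its stress arm.

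The pools held between 33181614 and 180056814 unique molecular identifiers (UMIs) from 571 to 6142 cells, and levels are given as UMIs of a gene per 1000000 UMIs of the pool (CPM). In such sums, fewer cells of a type and less RNA per cell cannot be told apart. The 10 pluripotency markers, none of them a transfected factor, summed to 44.4 and 44.7 CPM in the pools of D0 and to 5450 and 5187 CPM in those of D15, and the 10 fibroblast markers to 4040 and 4196 CPM and then to 990 and 1166 CPM. The 8 mesendoderm markers summed to at most 15.8 CPM in the pools of D0 to D9 and to 91.4 to 202 CPM in those of D11 to D15, and the part of such cells in the later comparisons was not tested. Of 42998 distinct cell barcodes, 1185 (2.76%) occurred in more than 1 library. The pools of D3 and D13 stood apart from each other, since the median absolute log2 ratio of A to B over all genes tested was 0.36 on D3 and 0.43 on D13 against 0.064 to 0.22 on the other days. The ratios over all genes were taken after adding 1 CPM to each level, and those of the 10 genes were not. For the 10 genes the median was 0.82 on D3 and 0.94 on D13. All 10 were higher in pool A on D13, as were 61.8% of all genes tested. Aliquots of 1 pool differed by a median ratio of the higher to the lower level of 1.23 (60 pairs of values, at most 3.45) against 1.16 between pools of a day (80 pairs, at most 2.97). The largest was PSAT1 in pool A of D5, at 79.5 CPM in one aliquot and 23.0 CPM in the other.

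ATF4 binds with C/EBP proteins to a response element whose core reads TGATGNAA, and the windows of 250 bases before to 50 after the start sites of RefSeq (GRCh38.p14) were searched for it on both strands, for its full form TGATGCAA, which overlaps the core, and for the E-box CACGTG, the site of MYC and related factors. RefSeq windows were matched for 8 of the 10 genes (13 windows), and not for PSPH or SHMT2. The core was found in ASNS and CHAC1, that is in 2 of 8 genes, against 4.46% of all 27305 genes and 3.62% of all 35116 windows. The full form was found in CHAC1 (1.08% of genes, 0.866% of windows) and the E-box in ATF4 (8.77% of genes, 7.26% of windows). The 3 sites are printed with their flanks, because they were the only matches to these motifs in the 13 windows, and the capitals mark the motif. All 3 stretches overlap an annotated exon of some transcript in gencode v44.
ASNS, chr7:97872458-97872487, minus strand, the core 60 bases before the start: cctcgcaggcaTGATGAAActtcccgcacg
CHAC1, chr15:40953251-40953280, plus strand, the full form read on the opposite strand 201 bases before the start: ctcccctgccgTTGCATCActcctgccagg
ATF4, chr22:39520466-39520493, plus strand, the E-box 76 bases before the start: gaggagacggtCACGTGgtcgcggcgga
A match says only that these letters occur there. No binding was measured.

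The day means of the 5 enzymes and of ASNS were lowest on D0 and highest on D13, whereas those of ATF4, DDIT3, TRIB3 and CHAC1 were highest on D5. For PHGDH, SHMT2 and ASNS the maximum on D13 rested on pool A alone, since pool B of D13 lay below all pools of D9, D11 and D15. Over the 8 day means of log2(CPM + 1), Pearson's r between any pair of the 5 enzymes and ASNS lay between 0.82 and 0.98. Between these 6 genes and ATF4, DDIT3 or TRIB3 it lay between -0.54 and 0.11, and between them and CHAC1 between 0.26 and 0.59. These correlations are over 8 points that share their libraries and are given as a description.

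**Figure D1:**
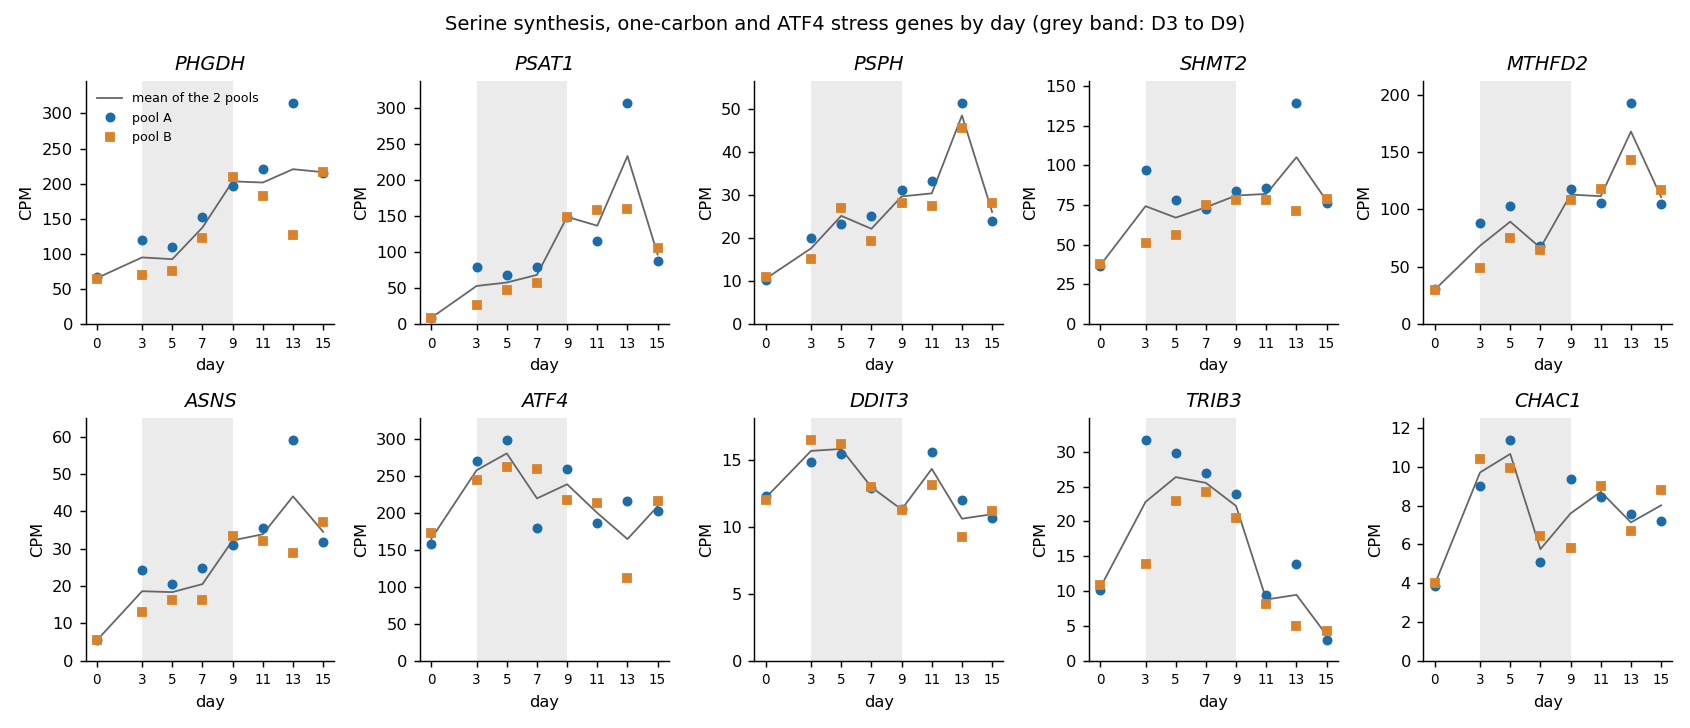
CPM (y axis, linear, from 0) of each of the 10 genes by day (x axis), with pool A as circles, pool B as squares and the line at the mean of both pools. The means of the enzymes and ASNS are lowest on D0 and highest on D13, where pool A lies far above pool B for PHGDH, PSAT1, SHMT2 and ASNS, and both pools of TRIB3 are high on D5, D7 and D9.

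PHGDH (chromosome 1, 119648411 to 119744218 on the plus strand of GRCh38), the dehydrogenase of the entry step of serine synthesis, started from 66.96 and 63.8 CPM in pools A and B of D0. It then measured 120.3 and 69.4 on D3, 109 and 75.5 on D5 and 152 and 123 CPM on D7. From there it went on to 197 and 209 on D9, 221 and 182 on D11, 315 and 126 on D13 and 216 and 217 CPM on D15. Every later pool was above both pools of D0, and both pools of D9, D11 and D15 were above those of D3 to D7, while pool B of D13 lay among them. PSAT1 (chromosome 9, 78297125 to 78330093, plus strand), the transaminase of the next step, had by far the widest range of the 10. Its level was 8.44 and 8.89 CPM on D0, 79.2 and 26.6 on D3, 67.7 and 47.7 on D5 and 79.95 and 56.7 CPM on D7. The pools that followed gave 149 and 149 on D9, 115 and 158 on D11, 307 and 160.1 on D13 and 87.8 and 106 CPM on D15, so that the day means spanned 27.0-fold. The pools of D15 lay below all those of D9, D11 and D13. PSPH (chromosome 7, 56011051 to 56051604, minus strand), the phosphatase that releases serine, moved in a narrower range. It has a near-identical pseudogene copy elsewhere in the genome, so that some of its reads may have been lost or misplaced in the counting. It measured 10.2 and 10.8 CPM on D0, 20.05 and 15.1 on D3, 23.3 and 26.9 on D5 and 25.01 and 19.2 CPM on D7. Its later levels were 31.2 and 28.05 on D9, 33.1 and 27.5 on D11, 51.3 and 45.5 on D13 and 23.8 and 28.2 CPM on D15. Both pools of D13 were the highest of the 16, which held for no other enzyme but MTHFD2 and PSAT1.

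SHMT2 (chromosome 12, 57229573 to 57234935, plus strand), the mitochondrial enzyme that splits serine into glycine and a one-carbon unit, was at 36.5 and 37.6 CPM on D0 and at 97.4 and 51.2 on D3, 78.3 and 55.9 on D5 and 72.3 and 74.98 CPM on D7. It then measured 84.1 and 77.98 on D9, 86.05 and 78.1 on D11, 139 and 71.1 on D13 and 76.3 and 79.1 CPM on D15. After D0 its days hardly separated, and of the 7 pairs of neighbours in the order of its day means 6 overlapped. MTHFD2 (chromosome 2, 74186172 to 74217565, plus strand), which oxidises that one-carbon unit in the mitochondrion, measured 30.3 and 29.5 CPM on D0, 87.8 and 48.7 on D3, 103 and 75.4 on D5 and 67.97 and 64.7 CPM on D7. The pools that followed gave 118 and 108 on D9, 105 and 117 on D11, 192 and 143 on D13 and 104 and 117 CPM on D15. ASNS (chromosome 7, 97851677 to 97872542, minus strand), asparagine synthetase, measured 5.45 and 5.43 CPM on D0, 24.3 and 12.9 on D3, 20.4 and 16.3 on D5 and 24.7 and 16.3 CPM on D7. Its later levels were 31.1 and 33.4 on D9, 35.6 and 32.1 on D11, 59.2 and 28.9 on D13 and 31.9 and 37.2 CPM on D15. For both genes all 14 later pools exceeded those of D0, and the day means spanned 5.61-fold for MTHFD2 and 8.09-fold for ASNS. How many of all genes had every later pool above D0 was not counted. With the days ordered by each gene's own means, 3 of the 7 pairs of neighbours overlapped for PHGDH and for PSAT1. There were 4 for MTHFD2, and 5 for PSPH and for ASNS. Neighbours in this order need not be adjacent days. Such overlaps were not counted for all genes, so these counts and that of SHMT2 are given as a description.

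ATF4 (chromosome 22, 39519695 to 39522683, plus strand) varied little, with day means spanning 1.70-fold. It measured 158 and 173 CPM on D0, 271 and 245 on D3, 299.5 and 263 on D5 and 180.3 and 259.9 CPM on D7. It then measured 260.2 and 218 on D9, 187 and 214 on D11, 217 and 113 on D13 and 203 and 216 CPM on D15. Pool B of D13 was the lowest of all 16 pools, and both pools of the other 6 later days were above D0. DDIT3 (chromosome 12, 57516588 to 57521737, minus strand), the stress-induced factor CHOP, spanned only 1.49-fold. Its pools measured 12.3 and 12.04 CPM on D0, 14.8 and 16.5 on D3, 15.4 and 16.2 on D5 and 12.9 and 12.999 CPM on D7. The pools that followed gave 11.4 and 11.2 on D9, 15.6 and 13.1 on D11, 11.99 and 9.23 on D13 and 10.7 and 11.2 CPM on D15. It lay above D0 in both pools of 4 days (D3, D5, D7 and D11) and below D0 in both pools of 3 days (D9, D13 and D15).

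TRIB3 (chromosome 20, 362835 to 397559, plus strand), a pseudokinase that restrains ATF4 and DDIT3, had a plateau that ended between D9 and D11. Its pools measured 10.1 and 10.9 CPM on D0, 31.7 and 13.9 on D3, 29.9 and 22.9 on D5 and 26.9 and 24.2 CPM on D7. Its later levels were 24.01 and 20.4 on D9, 9.46 and 8.11 on D11, 13.9 and 5.05 on D13 and 3.01 and 4.34 CPM on D15. Both pools of D15 (100 and 281 UMIs) were below all the others, and both pools of D5, D7 and D9 were above all pools of D0, D11, D13 and D15. CHAC1 (chromosome 15, 40952962 to 40956512, plus strand), which degrades glutathione, measured 3.87 and 4.02 CPM on D0, 9.04 and 10.4 on D3, 11.4 and 9.95 on D5 and 5.07 and 6.45 CPM on D7. It then measured 9.38 and 5.83 on D9, 8.45 and 8.99 on D11, 7.58 and 6.70 on D13 and 7.23 and 8.81 CPM on D15, and every later pool lay above both pools of D0.

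The step from D0 to D3 asks what changed with the start of the transfections. The medium and its serum changed in the same step. Low oxygen is described for the reprogramming but not for the fibroblast culture. Transfection, medium and oxygen therefore cannot be told apart in any comparison with D0. Here 4 of the 10 genes rose (13.1% of all genes tested did) and none fell (12.3% of all genes fell). PSAT1 rose by a log2 fold change of 2.54 (SE 0.40, adjusted p = 0.000434), ASNS by 1.72 (SE 0.32, adjusted p = 0.00112), CHAC1 by 1.27 (SE 0.24, adjusted p = 0.00129) and MTHFD2 by 1.13 (SE 0.22, adjusted p = 0.00148). With 1 pool left out in turn, the log2 fold change of PSAT1 lay between 1.64 and 3.11. A gene counts as called here if edgeR's quasi-likelihood test over the 16 pools gave an adjusted p under 0.01 and the fold change passed 0.25 on the log2 scale. PSPH (adjusted p = 0.0188), SHMT2 (0.0161), TRIB3 (0.0473) and ATF4 (0.054) missed the threshold with log2 fold changes of 0.69, 0.95, 1.06 and 0.60. At an unadjusted p below 0.05 there were 8 of the 10 against 48.8% of all genes, and DESeq2 called 6 as rises against 16.7% and none as a fall against 17.0%. This step rests on the spread shared by all days, since with the 4 pools of D0 and D3 alone edgeR called none of the 10 and none of all genes tested, although 8 of the 10 and 42.1% of all genes had an unadjusted p below 0.05. MTHFD2, ASNS and CHAC1 lost their calls without either pool of D0, and MTHFD2 also without pool A of D3. Each of these fits leaves 1 pool for that day. Over the 16 fits that left out 1 pool, MTHFD2 lay between 0.72 (without pool A of D3) and 1.47. ASNS lay between 1.27 and 2.07 and CHAC1 between 1.11 and 1.41, all log2 fold changes.

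None of the 10 genes was called between adjacent later days by edgeR, where few genes were called at all. The shares of all genes called in either direction were 3.76% for D5 against D3, 2.07% for D7 against D5 and 7.53% for D9 against D7. They were 4.42% for D11 against D9, 0.147% for D13 against D11 and 0.0849% for D15 against D13. At an unadjusted p below 0.05 there were 1, 1, 2, 1, 3 and 4 of the 10 in these steps, in that order, against 20.1%, 16.3%, 27.2%, 24.5%, 16.4% and 23.2% of all genes. DESeq2 called 1 of the 10 in each of the steps to D7, D11 and D15, in each case a fall, against 1.14%, 3.21% and 3.70% of all genes. It called 0 in the other 3, and as the shares of all genes in these are not given, the 0 is not read as a result. The changes with the smallest adjusted p by edgeR were PSPH from D13 to D15 at a log2 fold change of -0.87 (SE 0.21, adjusted p = 0.0407), MTHFD2 from D7 to D9 at 0.72 (SE 0.22, adjusted p = 0.0412) and TRIB3 from D9 to D11 at -1.35 (SE 0.39, adjusted p = 0.0482).

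Taken over the early phase, 6 of the 10 genes rose from D0 to the mean of D3 to D9 (22.2% of all genes rose) and none fell (23.8% of all genes fell). PSAT1 rose 8.00-fold, with a log2 fold change of 2.9996 (SE 0.37, adjusted p = 2.27e-05). ASNS rose by 1.899 (SE 0.28, adjusted p = 8.63e-05), MTHFD2 by 1.35 (SE 0.19, adjusted p = 5.44e-05), PSPH by 1.04 (SE 0.17, adjusted p = 0.000256), CHAC1 by 0.96 (SE 0.20, adjusted p = 0.00116) and SHMT2 by 0.89 (SE 0.23, adjusted p = 0.00502) on the log2 scale. TRIB3 (1.097, SE 0.33, adjusted p = 0.0122), PHGDH (0.83, SE 0.27, adjusted p = 0.0167) and ATF4 (0.49, SE 0.19, adjusted p = 0.0388) had positive log2 fold changes that missed the threshold, and DDIT3 was at 0.083 (SE 0.14, adjusted p = 0.636). At an unadjusted p below 0.05 there were 9 of the 10 against 63.5% of all genes, and DESeq2 called 8 as rises against 27.3% and none as a fall against 25.6%. The median log2 fold change was 1.00 over the 10 genes and -0.014 over all genes tested. SHMT2 lost its call without pool A of D0 (0.91), pool B of D0 (0.91) or pool A of D9 (0.87), and CHAC1 without either pool of D0 (0.98 and 0.98, all log2 fold changes).

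From the early phase to the mean of D11 to D15, most of the enzymes and TRIB3 parted. The transfections ended on day 8 and the medium changed from day 9, so these cannot be told apart here. The make-up of the pools changed as well. PSAT1 (0.94, SE 0.20, adjusted p = 0.00166), ASNS (0.75, SE 0.16, adjusted p = 0.00184), PHGDH (0.74, SE 0.17, adjusted p = 0.00244), MTHFD2 (0.61, SE 0.12, adjusted p = 0.000585) and PSPH (0.52, SE 0.11, adjusted p = 0.00142) rose, 5 of the 10 against 22.6% of all genes. TRIB3 fell, at a log2 fold change of -1.87 (SE 0.22, adjusted p = 1.32e-05), the only 1 of the 10 to fall against 21.3% of all genes, and it kept this call without any 1 pool. ATF4 (-0.41, SE 0.12, adjusted p = 0.0129) and DDIT3 (-0.24, SE 0.10, adjusted p = 0.047) had negative log2 fold changes that missed the threshold, and SHMT2 (0.22, SE 0.15, adjusted p = 0.212) and CHAC1 (-0.071, SE 0.13, adjusted p = 0.659) were not called. The median over the 10 genes was 0.37 and that over all genes tested -0.0049. Without pool A of D13, which stood above pool B for all 10 genes, the 6 calls were kept, with PSAT1 at 0.80, PHGDH at 0.52 and TRIB3 at -2.12, and ATF4 passed the threshold as well at -0.55. Without pool A of D11, PHGDH missed the threshold at a log2 fold change of 0.67.

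End to end, from D0 to D15, 7 of the 10 rose (26.8% of all genes) and 1 fell (26.3% of all genes). PSAT1 was 10.5-fold higher on D15, with a log2 fold change of 3.396 (SE 0.42, adjusted p = 1.38e-05), and ASNS was 5.99-fold higher, at 2.58 (SE 0.32, adjusted p = 1.69e-05). MTHFD2 (1.803, SE 0.22), PHGDH (1.64, SE 0.32), PSPH (1.22, SE 0.21), SHMT2 (0.98, SE 0.28) and CHAC1 (0.94, SE 0.24) also rose, at adjusted p from 1.36e-05 to 0.00713. TRIB3 fell, at -1.59 (SE 0.40, adjusted p = 0.00399), and thus ended below the level of untransfected fibroblasts. ATF4 (0.26, SE 0.23) and DDIT3 (-0.24, SE 0.18) were not called. Mitochondrial genes held 3.09% and 3.42% of the UMIs in the pools of D0, 5.83% and 6.32% in those of D15 and 2.89% to 5.68% on the days between, and the part of this in the changes was not tested. This comparison rests on 4 pools, and leaving out any 1 of them leaves 1 pool for that day. TRIB3 missed the threshold without any 1 of the 4 pools of D0 and D15 (log2 fold changes from -1.88 to -1.33). So did CHAC1 without either pool of D0 (0.95 and 0.96) or pool B of D15 (0.79) and PHGDH without pool B of D0 (1.596). SHMT2 missed it in 10 of the 16 fits that left out 1 pool, those without any 1 pool of D0, D7, D9, D11 or D15 (0.96 to 1.04).

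**Figure D2:**
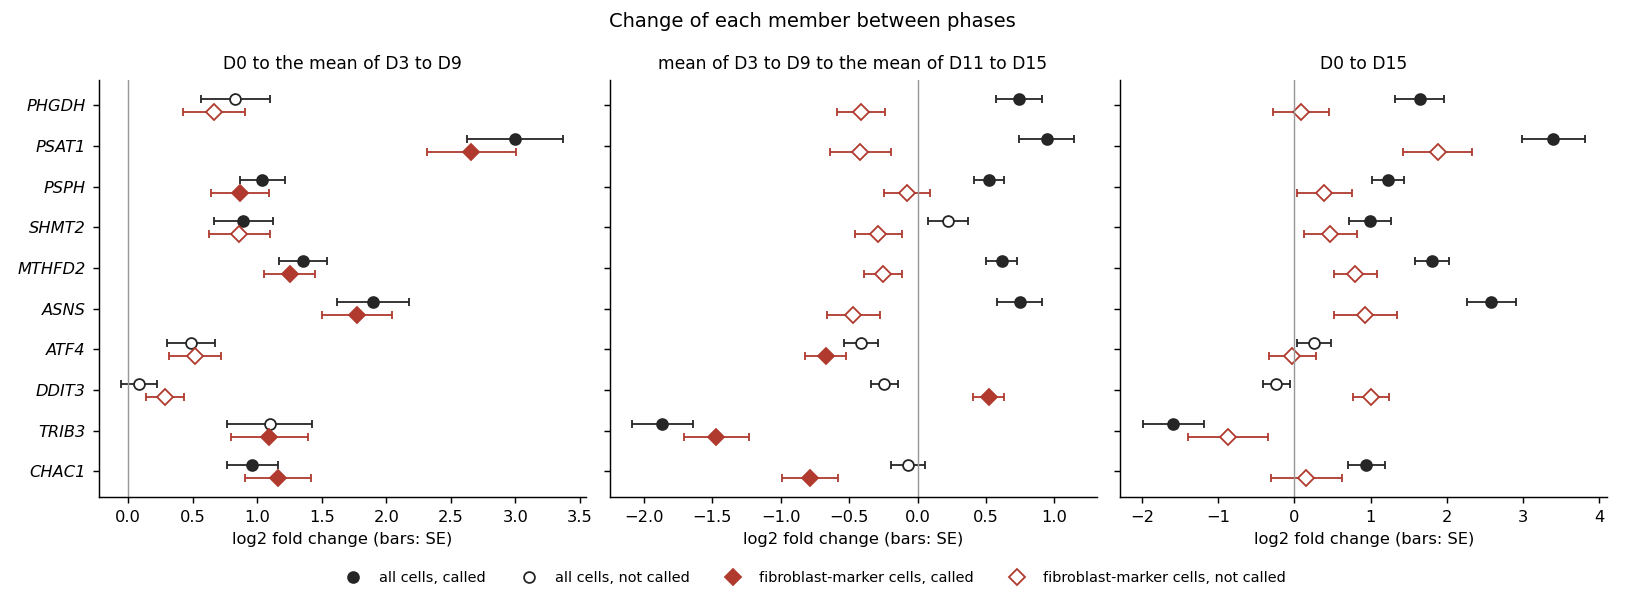
Log2 fold change (x axis, bars 1 SE) of each gene (y axis) in the comparisons of D0 with the mean of D3 to D9, of that mean with the mean of D11 to D15, and of D0 with D15, for all cells (circles) and for fibroblast-marker cells alone (diamonds), filled where called. From the early phase to D11 to D15 the enzymes and ASNS lie right of 0 in all cells and left of 0 in fibroblast-marker cells, and TRIB3 lies left of 0 in both.

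The make-up of the pools changed over the same days. A cell was put in the pluripotency-marker class or the fibroblast-marker class when, at 5000 UMIs per cell, it had UMIs of at least 2 more of one set of 10 markers than of the other. The pluripotency-marker class held no cell on D0 and D3, 4.63% and 3.76% of the cells on D7, 42.3% and 48.8% on D9, 44.5% and 53.4% on D11, 63.5% and 74.6% on D13 and 88.4% and 86.8% on D15. The day comparisons were therefore run again on the fibroblast-marker cells alone, an alternative chosen after the data were seen. The fibroblast-marker class held 92.8% and 95.2% of the cells on D3 and 70.6% and 85.3% on D7. It held 35.6% and 27.5% on D9, 39.3% and 38.2% on D11 and 8.58% and 8.78% on D15. It was thus not the same part of a pool on each day. From D0 to the mean of D3 to D9, 6 of the 10 genes rose in these cells as well (16.6% of all genes) and none fell (17.9%), namely PSAT1 (2.66, SE 0.35), ASNS (1.77, SE 0.27), MTHFD2 (1.25, SE 0.20), CHAC1 (1.16, SE 0.26), TRIB3 (1.09, SE 0.30) and PSPH (0.86, SE 0.22, all log2 fold changes).

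From the early phase to D11 to D15, however, none of the enzymes rose among fibroblast-marker cells. Their log2 fold changes were all negative and not called, at -0.47 (SE 0.19) for ASNS, -0.42 (SE 0.22) for PSAT1, -0.42 (SE 0.18) for PHGDH, -0.29 (SE 0.17) for SHMT2, -0.25 (SE 0.14) for MTHFD2 and -0.078 (SE 0.17) for PSPH. DDIT3 was the 1 gene of the 10 that rose (0.52, SE 0.11), against 15.2% of all genes, and 3 of the 10 fell against 11.5% of all genes. These were TRIB3 (-1.47, SE 0.24), CHAC1 (-0.79, SE 0.21) and ATF4 (-0.67, SE 0.15). Of the fibroblast-marker cells 25.1% to 54.6% were dividing in the pools of D3 to D9 and 10.2% to 25.5% in the 5 pools of D11 to D15 with enough of them, and the part of this in these changes was not tested. DDIT3 stood at 12.3 and 12.1 CPM in the fibroblast-marker cells of pools A and B of D0, at 15.3 and 16.8 on D3, 15.7 and 16.9 on D5, 13.2 and 13.6 on D7, 14.8 and 19.6 on D9, 21.1 and 22.6 on D11, 23.2 and 20.1 on D13 and 26.6 CPM in pool B of D15. Every pool used of D11 to D15 thus lay above every earlier one. The closest were pool B of D13 at 20.1 and pool B of D9 at 19.6 CPM. How many of all genes had pools apart in this way was not counted. From D0 to D15 none of the 10 rose or fell in these cells by edgeR (7.94% and 4.06% of all genes did), where only pool B of D15 had enough of them (185 cells), and 4 of the 10 had an unadjusted p below 0.05 against 34.2% of all genes. PSAT1 (1.88, SE 0.45) and DDIT3 (1.002, SE 0.23) had the log2 fold changes farthest from 0. That single pool was assumed to vary like the others, and the difference between all cells and fibroblast-marker cells was not itself tested.

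The 2 marker classes of D7 to D15 were also compared within the same pools. Pool was a block, and 9 pools had at least 50 cells in each class (10511 and 8015 cells in all). All 5 enzymes and ASNS were higher in pluripotency-marker cells, 6 of the 10 against 33.1% of all genes, and DDIT3 was lower, 1 of the 10 against 33.6% of all genes. PSAT1 was 3.20-fold higher, with a log2 fold change of 1.68 (SE 0.19, adjusted p = 1.93e-05), followed by PHGDH (1.13, SE 0.16, adjusted p = 8.11e-05), ASNS (1.02, SE 0.20, adjusted p = 0.000834), PSPH (0.86, SE 0.12, adjusted p = 5.4e-05), MTHFD2 (0.84, SE 0.15, adjusted p = 0.000376) and SHMT2 (0.41, SE 0.12, adjusted p = 0.00732). DDIT3 was 2.05-fold lower, at -1.03 (SE 0.13, adjusted p = 4.18e-05). ATF4 (0.11, SE 0.081, adjusted p = 0.245), TRIB3 (-0.25, SE 0.12, adjusted p = 0.088) and CHAC1 (0.17, SE 0.24, adjusted p = 0.535) did not pass. SHMT2 kept its call in 3 of the 9 fits without 1 pool and lost it without pool A of D9 and without either pool of D11, either pool of D13 or pool B of D15, at log2 fold changes of 0.33 to 0.43 in these fits.

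Pool by pool, PSAT1 measured 116 against 70.4 CPM in the pluripotency-marker and fibroblast-marker cells of pool A of D7 and 105 against 49.1 in pool B. On D9 it measured 202 against 70.3 and 189 against 66.4, on D11 156 against 43.6 and 216 against 37.8, on D13 399 against 59.8 and 179 against 66.8, and in pool B of D15 113 against 34.7 CPM. Across all pools the lowest value in pluripotency-marker cells lay above the highest in fibroblast-marker cells. The same holds for no other enzyme, although PHGDH, PSPH and MTHFD2 were higher in pluripotency-marker cells in 9 of 9 pools and SHMT2 and ASNS in 8 of 9. PHGDH ranged from 137 to 389 CPM (median 230) in pluripotency-marker cells and from 65.6 to 141 CPM (median 113) in fibroblast-marker cells, with pool B of D13 the lowest in both.

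DDIT3 ran the other way in all 9 pools. In pools A and B it measured 10.6 against 13.2 and 9.33 against 13.6 CPM on D7, 9.44 against 14.8 and 8.51 against 19.6 on D9, 12.4 against 21.1 and 8.67 against 22.6 on D11, 8.22 against 23.2 and 7.31 against 20.1 on D13, and 9.70 against 26.6 CPM in pool B of D15, in each case pluripotency-marker against fibroblast-marker cells. The classes did not overlap, at 7.31 to 12.4 CPM against 13.2 to 26.6 CPM. How many of all genes lacked such overlap, here or for PSAT1, was not counted. ATF4 was higher in pluripotency-marker cells in 5 of 9 pools, CHAC1 in 5 and TRIB3 in 3. Depth moved with the classes, since the median cell of the 9 pools had 30961 to 99519 UMIs in the pluripotency-marker class and 20814 to 74737 UMIs in the fibroblast-marker class. So did division, at 62.8% to 84.3% of cells against 10.2% to 54.6%. Among dividing cells alone (7 pools, added after the data were seen), PSAT1 (1.21, SE 0.17), PHGDH (0.63, SE 0.082) and PSPH (0.61, SE 0.076) remained higher, 3 of the 10 against 23.6% of all genes, and DDIT3 lower (-0.69, SE 0.16), 1 of the 10 against 24.3%. MTHFD2 (0.50, SE 0.15), ASNS (0.55, SE 0.23) and SHMT2 (0.18, SE 0.11) were not called there.

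**Figure D3:**
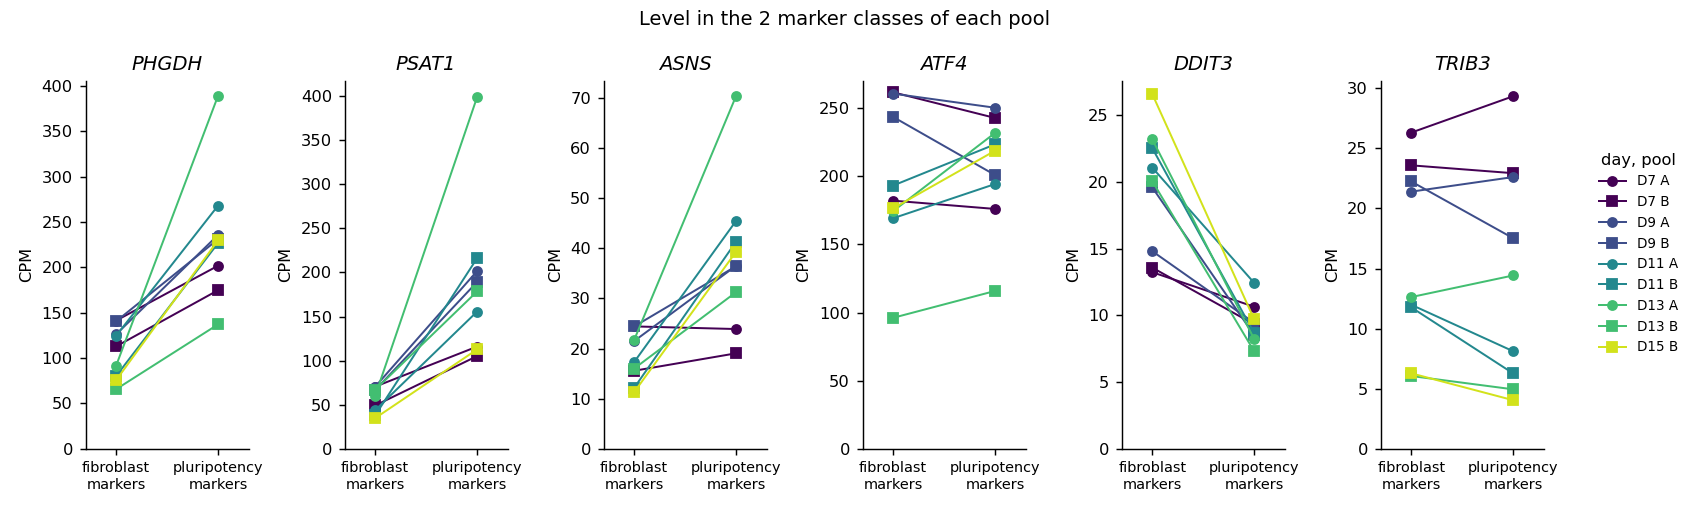
CPM (y axis, linear, from 0) of 6 genes in the fibroblast-marker (left) and pluripotency-marker (right) cells of the 9 pools, each line joining the 2 classes of 1 pool, coloured by day. Every line goes up for PHGDH and PSAT1 and down for DDIT3, while the lines of ATF4 and TRIB3 run both ways.

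Cells were also split by division within pools. Dividing cells had UMIs of at least 3 of 10 cell cycle markers and non-dividing cells of none (18370 and 10489 cells in 15 pools, all but pool A of D15). The 5 enzymes and ASNS were higher in dividing cells, 6 of the 10 against 27.1% of all genes, and DDIT3 lower, 1 of the 10 against 30.0%. PSAT1 differed by 1.29 (SE 0.14, adjusted p = 4.26e-07), ASNS by 0.98 (SE 0.087, adjusted p = 4.94e-08), MTHFD2 by 0.88 (SE 0.089, adjusted p = 2.37e-07), PHGDH by 0.85 (SE 0.11, adjusted p = 2.95e-06), PSPH by 0.45 (SE 0.088, adjusted p = 0.000218) and SHMT2 by 0.38 (SE 0.068, adjusted p = 8.73e-05), and all 6 were higher in 15 of 15 pools. In untransfected fibroblasts this was already so, with PHGDH at 98.9 against 52.4 CPM and 96.2 against 49.8 CPM in dividing against non-dividing cells of pools A and B, and PSAT1 at 12.8 against 6.88 and 12.97 against 7.33 CPM. DDIT3 was lower in 15 of 15 pools, at -0.89 (SE 0.12, adjusted p = 8.26e-06), from 7.59 to 15.0 CPM in dividing cells against 11.6 to 30.8 CPM. On D0 the difference was small, at 12.3 against 12.8 CPM in pool A and 11.3 against 11.6 CPM in pool B. How many of all genes went the same way in all 15 pools was not counted. ATF4 had an adjusted p of 0.00524 but a log2 difference of 0.16 (SE 0.046), below the limit of 0.25, while TRIB3 (-0.16, SE 0.083, adjusted p = 0.0941) and CHAC1 (-0.48, SE 0.19, adjusted p = 0.0312) were not called.

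Division and the marker classes overlap, so the split was repeated among fibroblast-marker cells alone, also after the data were seen. There 4 of the 10 were higher in dividing cells against 23.3% of all genes, namely PSAT1 (0.90, SE 0.092), ASNS (0.75, SE 0.10), MTHFD2 (0.68, SE 0.10) and PHGDH (0.63, SE 0.066). Lower were 2 of the 10 against 26.0% of all genes, CHAC1 (-0.76, SE 0.14) and DDIT3 (-0.52, SE 0.086). PSPH (0.24, SE 0.054) and SHMT2 (0.23, SE 0.05) had log2 differences of less than 0.25.

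Among non-dividing cells alone, also added after the data were seen, 4 of the 10 rose from D0 to the mean of D3 to D9 against 12.8% of all genes and none fell against 13.4%. They were PSAT1 (2.43, SE 0.36), ASNS (1.4999, SE 0.30), CHAC1 (1.49, SE 0.23) and MTHFD2 (0.83, SE 0.18). From there to D11 to D15 none of the 10 rose in non-dividing cells (9.34% of all genes did) and 2 fell (5.25% of all genes), TRIB3 (-1.46, SE 0.32) and CHAC1 (-1.18, SE 0.19), with 3 of the 10 at an unadjusted p below 0.05 against 37.9% of all genes. The enzymes and ASNS lay between -0.17 for SHMT2 and 0.20 for PSAT1. On D15 these values rest on the 95 non-dividing cells of pool B alone, since pool A had 25 and was not used, and the lone pool is assumed to vary like the pools of other days. From D0 to D15 PSAT1 (2.22, SE 0.49) was the 1 gene of the 10 called as higher against 7.51% of all genes, and none was called as lower (3.59%). Non-dividing cells were 49.1% and 48.7% of the pools of D0 and 4.38% and 4.51% of those of D15. In the pools of D11 to D15 with enough cells of both marker classes, 74.7% to 84.3% of pluripotency-marker cells were dividing. Of the fibroblast-marker cells of these pools 10.2% to 25.5% were. The part of the marker classes in the values of non-dividing cells was not tested.

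At 5000 UMIs per cell, UMIs of DDIT3, TRIB3 and CHAC1 were seen in few cells, unlike those of ATF4, which were in 51.9% to 70.9% of the cells by day. DDIT3 was seen in 6.44% ± 0.23 of the cells on D0, 7.58% ± 1.1 on D3 and 7.81% ± 0.64 on D5 (SD, n = 2). The share was 6.39% ± 0.11 on D7 and 5.89% ± 0.20 on D9, and on the later days 6.67% ± 0.82 (D11), 5.28% ± 0.24 (D13) and 5.62% ± 0.51 (D15). Without thinning the share was 27.8% on D0, 49.8% on D7 and 27.7% on D15, where the cells of D7 were among the deepest. TRIB3 was seen in 5.02% ± 0.23 of the thinned cells on D0, 10.7% ± 5.7 on D3 and 11.3% ± 1.9 on D5, and the values of D7 and D9 were 11.02% ± 1.5 and 9.73% ± 0.85. It was then seen in 4.59% ± 0.67 (D11), 4.13% ± 2.3 (D13) and 1.81% ± 0.33 (D15), and CHAC1 in 1.79% to 4.95% over the days. No cell type known to lack these genes was at hand as a background, so the shares are not read as shares of expressing cells.

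Within pools, the 2722 cells with a DDIT3 UMI were then compared with the 38682 cells without one at the same depth (15 pools). None of the other 9 genes was higher in the cells with DDIT3 by edgeR or by DESeq2 (1.34% and 1.61% of all genes tested were), and 5 of the 9 had an unadjusted p below 0.05 in either direction against 22.5% of all genes. PSAT1 was lower, 1 of the 9 against 1.76% of all genes, by a log2 difference of -0.37 (SE 0.066, adjusted p = 0.000117), in 13 of 15 pools. TRIB3 (0.41, SE 0.13, adjusted p = 0.0295) and CHAC1 (0.34, SE 0.16, adjusted p = 0.198) had positive differences that missed the threshold, being higher in 12 and 11 of 15 pools, ATF4 was at 0.057 (SE 0.038, adjusted p = 0.409), and the other enzymes and ASNS lay between -0.16 and -0.035. Fewer of the cells with DDIT3 were dividing in most later pools, for instance 32.5% against 52.5% in pool B of D11, and the part of this in the difference of PSAT1 was not tested.

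**Figure D4:**
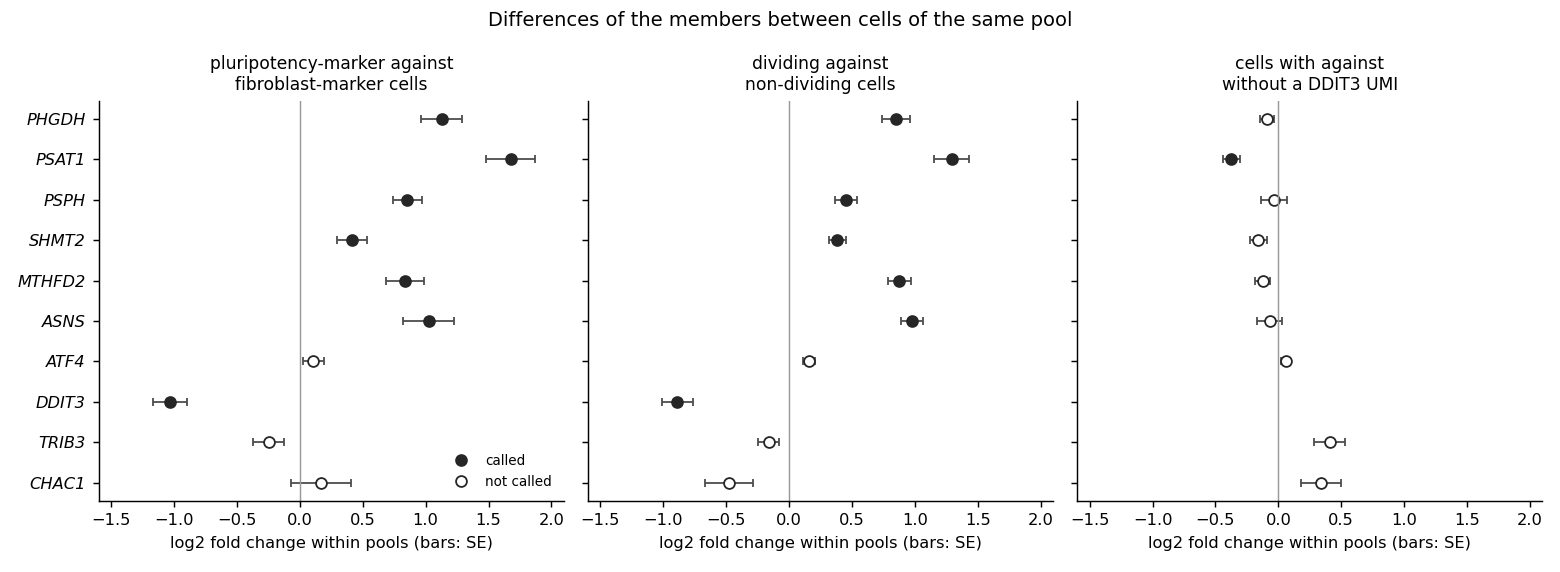
Log2 difference (x axis, bars 1 SE) of each gene (y axis) between pluripotency-marker and fibroblast-marker cells, dividing and non-dividing cells, and cells with and without a DDIT3 UMI, all within pools and filled where called. The 5 enzymes and ASNS lie right of 0 and DDIT3 left of 0 in the first 2 panels, and PSAT1 alone is filled in the third, where DDIT3 is not plotted.

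Other genes of the pathway were taken from 8 lists. From D0 to the mean of D3 to D9, where 22.2% of all genes rose and 23.8% fell, 8 of 12 cytosolic tRNA synthetases known to respond to ATF4 rose and none fell (median log2 fold change 0.80), led by the tyrosyl enzyme YARS at 1.904 (SE 0.23, adjusted p = 1.81e-05). Of the 8 other cytosolic synthetases 4 rose and none fell, with a median of 0.88, led by FARSA at 1.89. Of 10 amino acid transporters 6 rose and 2 fell (median 1.44), with the largest fall in SLC38A2 (-1.12). The largest rise was that of SLC7A3, a carrier of cationic amino acids, which had at most 0.00600 CPM in a pool of D0 and 9.29 and 10.5 CPM on D9, so that no fold is given. Of 18 other ATF4 targets and partners 9 rose and 4 fell (median 0.77). CTH, which makes cysteine, rose from 1.39 and 1.37 CPM on D0 to 20.7 and 23.5 CPM on D9 (log2 fold change over the phase 3.12, SE 0.34, adjusted p = 7.47e-06), and CEBPB, a partner of ATF4, fell (-1.97, SE 0.51, adjusted p = 0.00506).

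Of 13 tested genes of folate and glycine metabolism 5 rose and 2 fell from D0 to the mean of D3 to D9 (median 0.60), with the largest rise in GLDC (1.95, SE 0.37, adjusted p = 0.00059), which cleaves glycine. Of 8 kinases and regulators of eIF2alpha, EIF2S1, eIF2alpha itself, rose (1.62), and 3 fell, most of all EIF2AK4 (-1.27), the kinase that senses uncharged tRNA. It measured 187 and 186 CPM on D0, 65.8 and 65.3 on D9 and 193 and 199 CPM on D15. Of 19 genes of the endoplasmic reticulum chaperones and the unfolded protein response 4 rose, a share near that of all genes, and 1 fell, with a median of 0.19 and the extremes in HYOU1 (1.94) and SEL1L (-1.099). Of 7 mitochondrial chaperones and proteases 4 rose and none fell (median 1.21), led by the chaperonin HSPD1 (2.01, SE 0.18, adjusted p = 1.54e-06), from 163 and 153 CPM on D0 to 626 and 691 CPM on D3.

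From the early phase to the mean of D11 to D15, 22.6% of all genes rose and 21.3% fell. Rises and falls numbered 3 and 4 of 13 in folate and glycine metabolism, 4 and 1 of 10 transporters, 2 and 0 of 12 ATF4-responsive synthetases, and 0 and 2 of the 8 others. They numbered 8 and 2 of 18 other ATF4 targets, 4 and 1 of 8 eIF2alpha kinases and regulators, 2 and 2 of 19 endoplasmic reticulum genes and 1 and 1 of 7 mitochondrial chaperones and proteases. List medians lay between -0.36 and 0.31, where that of all genes was -0.0049. Among the extremes, GLDC rose again (3.97, SE 0.22, adjusted p = 7.33e-09), reaching 17.1 and 14.5 CPM on D15, whereas TYMS, thymidylate synthase, fell (-1.31, SE 0.11, adjusted p = 6.7e-07). ADM2 (1.44), LARS (1.08), EIF2AK3 (0.77), HYOU1 (0.47) and HSPE1 (0.47) rose, and SLC7A3 reached 50.99 and 41.4 CPM on D15. GDF15, a secreted stress factor, fell (-0.98), as did HERPUD1 (-0.90), SLC7A11 (-0.84), HARS (-0.67), EIF2S1 (-0.55) and CLPP (-0.50).

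Between the marker classes 33.1% of all genes were higher and 33.6% lower in pluripotency-marker cells. In pluripotency-marker cells 9 of 12 ATF4-responsive synthetases were higher and none lower (median 0.64, led by LARS at 1.05), as were 4 of the 8 others (DARS, 0.57). Also higher were 7 of 10 transporters with 1 lower (SLC7A3 3.41, SLC1A4 -2.06), 7 of 13 genes of folate and glycine metabolism with 3 lower (GLDC 3.38, ALDH1L2 -2.34) and 5 of 7 mitochondrial chaperones and proteases with none lower (HSPD1 1.22). By contrast, none of 19 endoplasmic reticulum genes was higher and 13 were lower (median -0.36), with HERPUD1 lowest at -1.75 (SE 0.19, adjusted p = 1.21e-05). Of 18 other ATF4 targets and partners 6 were higher and 8 lower, from CBS (1.55) to NUPR1 (-3.26, SE 0.46, adjusted p = 7.61e-05), a stress-induced chromatin protein. Of 8 eIF2alpha kinases and regulators 1 was higher (EIF2S1, 0.38) and 3 lower, most of all EIF2AK3 (-0.52).

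The genes whose 8 day means on the log2(CPM + 1) scale were most like those of ASNS were FABP5 (Pearson's r 0.995), CHRNA5 (0.994), CEP76 (0.993), PDCD10 (0.992) and RCC2 (0.991). PSAT1 ranked 15th of the other 12953 genes tested for ASNS (0.983), MTHFD2 88th (0.969), SHMT2 90th (0.969), PSPH 491st (0.924) and PHGDH 522nd (0.921). For PHGDH they were RPS6KA1 (0.994), STK38L (0.992), HMGB3 (0.988), RNF167 (0.988) and SLC25A39 (0.988), with ASNS 659th (0.921) and PSAT1 1054th (0.896). ATF4 ranked 6815th for ASNS (0.061) and 7663rd for PHGDH (-0.16). With 8 points that all change along 1 time course, many genes reach such values.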

How the data were processed

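Single-cell RNA-seq libraries (10x Genomics 3' version 2 chemistry) of 8 days were analysed. The authors had aligned the reads to GRCh38 and made the deposited gene-by-cell count matrices with Cell Ranger 2.2, in which each count is a UMI. Barcodes were dropped if they had fewer than 1000 genes or over 10% of UMIs from mitochondrial genes, which left 41975 of 44197. No doublet caller was run; removing the top 5% of cells by UMIs of each pool served as the alternative. UMIs were summed over the cells of a pool, with aliquots added, and divided by the pool total to give CPM. Genes with a UMI in at least 5% of 20000 cells (2500 a day) were tested (12954). All 16 pools entered 1 edgeR 4.0.16 quasi-likelihood fit (R 4.3.3, TMM, Benjamini-Hochberg over all genes), and splits within pools used the pool as a block and at least 50 cells per class. Genes were called at an adjusted p below 0.01 and an absolute log2 fold change above 0.25. Errors after log2 fold changes are standard errors. The pools of a day are the replicates (n = 2), and as cells of 1 line, frozen and thawed, their spread may be partly technical. To put cells into marker classes they were thinned to 5000 UMIs, while the UMIs summed per class were not thinned, except in the split by DDIT3.

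The 10 members and the pathway lists were chosen with earlier results of these data known. The text names all 10 members, the called gene of each list with the largest rise and fall in both phase comparisons and between the marker classes, and the 5 genes most like ASNS and PHGDH, except that 1 list gene is not reported here. On simulated counts of the comparison of D3 with D5 the fit was tested before use. Alternatives were DESeq2 1.42.0, its size factors, no gene filter, another call rule, other cell sets, first aliquots, the pool letter as a block and each pool left out in turn. Gene coordinates came from gencode 44.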

Additional observations from a re-analysis of the deposited data

Results flagged for a closer look

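In 8 cases both pools of a day moved one way and both pools of another day the opposite way in the same split of the cells, with the difference between the days not tested. TRIB3 in dividing against non-dividing cells had log2 differences of 0.13 and 0.23 in pools A and B of D5 and of -0.55 and -0.60 on D11, a gap between the day means of 0.759. CHAC1 in the same split was at 1.03 and 0.54 on D13 and at -1.03 and -1.12 on D9, a gap of 1.862. In the smaller class of a pool this rested on as few as 20 UMIs of CHAC1. Between pluripotency-marker and fibroblast-marker cells, ATF4 was at 0.41 and 0.27 on D13 and at -0.058 and -0.28 on D9, a gap of 0.505. CHAC1 in that split was at 1.45 and 0.29 on D13 and at -0.35 and -0.82 on D9, a gap of 1.456, on as few as 48 UMIs. Between cells with and without a UMI of DDIT3, 4 genes were higher on D0 and lower on a later day, on 10 to 203 UMIs of the gene in the cells with DDIT3 of a pool. PHGDH was at 0.20 and 0.017 on D0 and at -0.094 and -0.34 on D11, a gap of 0.326. PSPH was at 0.048 and 0.16 on D0 and at -0.14 and -0.56 on D7, a gap of 0.454. MTHFD2 was at 0.18 and 0.38 on D0 and at -0.058 and -0.27 on D13, a gap of 0.444. ASNS was at 0.28 and 0.50 on D0 and at -0.085 and -0.48 on D13, a gap of 0.671. The days were picked as the extremes of those where both pools moved alike. All log2 differences of this paragraph were taken after adding 1 CPM to both levels.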

How the results depend on the processing

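In 7 comparisons (D0 to D3, the 3 between phases or ends and the 3 splits), of 1700 values of single genes under the alternatives 1547 kept direction and side of the threshold, 76 lost and 51 gained the call, and 26 changed sign. In the 6 later steps between neighbouring days, of 1720 values 1598 kept both, 10 gained the call and 112 changed sign. Counts of the 10 genes called changed by over 1.5 times as follows, each with the share of all genes called in the same fit, and the cause was not tested. For the fits without 1 pool, ranges of counts and of shares are given instead. There the lowest count need not come from the fit with the lowest share. From D0 to D3 there were 7 (40.0%) under a looser rule (an adjusted p under 0.05 at any fold), 0 (0%) with only the pools compared, 2 (5.05%) in non-dividing cells and 1 to 6 (11.02% to 30.4%) without 1 pool. Under that rule there was 1 from D7 to D9 (14.3%), from D9 to D11 (9.90%) and from D13 to D15 (3.97%), and 2 in the split by DDIT3 (10.3%). DESeq2 called 1 from D5 to D7 (4.80%), from D9 to D11 (9.70%) and from D13 to D15 (5.07%). From D9 to D11 there was 1 with no filter on genes (5.02%) and 1 with only the pools compared (9.07%). From D7 to D9 there were 0 to 1 (2.52% to 9.74%) without 1 pool (1 without either pool of D3). From the early phase to D11 to D15 there were 2 in non-dividing cells (14.6%), and from D0 to D15 0 in fibroblast-marker cells (11.996%), 1 in non-dividing cells (11.1%) and 4 to 8 (40.5% to 57.4%) without 1 pool. Between the marker classes there were 4 in dividing cells (47.9%), and in the split by DDIT3 2 with no filter on genes (4.00%) and 1 to 2 (2.01% to 4.05%) without 1 pool (2 without pool A of D0).

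The following log2 fold changes had the opposite sign to those given above. In fibroblast-marker cells from the early phase to D11 to D15 they were -0.42 for PHGDH, -0.42 for PSAT1, -0.078 for PSPH, -0.29 for SHMT2, -0.25 for MTHFD2, -0.47 for ASNS and 0.52 for DDIT3, and from D0 to D15 -0.031 for ATF4 and 1.00 for DDIT3. In non-dividing cells they were -0.032 for PHGDH, -0.17 for SHMT2 and 0.19 for DDIT3 in the former comparison and -0.0012 for ATF4 and 1.12 for DDIT3 in the latter. In dividing cells they were -0.038 for DDIT3 from D0 to D3 to D9, 0.24 for CHAC1 from there to D11 to D15 and -0.022 for ATF4 between the marker classes. With first aliquots only they were -0.011 for DDIT3 and 0.23 for CHAC1 in the same 2 phase comparisons. Without 1 pool, CHAC1 lay at -0.15 to 0.031 from the early phase to D11 to D15 (0.031 without pool A of D9) and at -0.017 to 0.32 between the marker classes (-0.017 without pool A of D13). TRIB3 was at 0.026 in the split by division in fibroblast-marker cells. In the split by DDIT3, PSPH was at 0.021 by DESeq2, 0.0039 with its size factors and -0.11 to 0.0034 without 1 pool (0.0034 without pool B of D13), and ATF4 at -0.045 with no filter on genes. Without that filter the TMM scaling moved the values of the 10 genes together, by a median of 0.18 from D0 to D3, -0.14 between the phases and -0.20 from D0 to D15.

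The pool letters were used as a replicate block as well, although the labels do not say what they pair. Over 28 pairs of days the deviations of same-lettered pools correlated at -0.39 to 0.80 (median -0.021). With this block 5, 8, 6 and 8 of the 10 were called from D0 to D3, from D0 to D3 to D9, from there to D11 to D15 and from D0 to D15, against 27.7%, 48.3%, 46.1% and 55.4% of all genes (25.3%, 45.9%, 43.99% and 53.1% without the block). In the other steps 0 were called, and as the shares of all genes in these are not given, the 0 is not read as a result. No pool had enough non-dividing cells in both marker classes for a value. With 2 pools a day, small changes between neighbouring days cannot be resolved, and shares of cells with a UMI moved with the depth to which cells were thinned.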

Other observations

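The pathway lists were also counted in the other splits of the cells. In dividing against non-dividing cells, where 27.1% of all genes were higher and 30.0% lower, 10 of 12 ATF4-responsive tRNA synthetases were higher, as were 5 of the 8 other synthetases, 7 of 10 amino acid transporters and 5 of 7 mitochondrial chaperones and proteases, with none lower. In folate and glycine metabolism 7 of 13 were higher and 2 lower. None of 19 endoplasmic reticulum genes was higher and 6 were lower, and of 18 other ATF4 targets and partners 3 were higher and 6 lower. Of 8 eIF2alpha kinases and regulators 1 was higher and none lower.

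In cells with a DDIT3 UMI, 4 of 18 other ATF4 targets and 3 of 19 endoplasmic reticulum genes were higher and none of either lower, against 1.34% of all genes tested. The genes named next were chosen after their values were seen. Higher were ATF3 (0.70, SE 0.17, adjusted p = 0.00524) and NUPR1 (0.61), both stress-induced, the secreted GDF15 (0.69), PPP1R15A (0.34), which directs the dephosphorylation of eIF2alpha, and the endoplasmic reticulum genes HERPUD1 (0.57), DNAJB9 (0.53) and HSPA5 (0.29). Lower were 2 of 7 mitochondrial chaperones and proteases and 1 of 8 eIF2alpha kinases and regulators, against 1.76% of all genes. These were the chaperonin genes HSPD1 (-0.33, SE 0.037, adjusted p = 4.18e-08) and HSPE1 (-0.26) and EIF2S1 (-0.27), all as log2 differences. None was called among 13 genes of folate and glycine metabolism, 10 amino acid transporters, 12 ATF4-responsive synthetases and 8 other synthetases.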
